A study of Gallus gallus with 4 samples.

Results

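The small autosomes of the chick, chromosomes 13 to 33, were examined in chromatin of otic-epibranchial progenitors (OEPs), the cranial ectoderm that gives rise to the inner ear and the epibranchial placodes. Members were taken by position alone, as all peaks of H3K27ac, H3K4me3 and H3K27me3 on a sequence numbered 13 to 33. This gave 21474 of the 95837 peaks in the series (22.4%), on 20 chromosomes, since no peak was listed on a chromosome 29. Wild-type status, strain and sex of the embryos are not given in the labels. OEP tissue was dissected from embryos of 8 to 9 somites, with 200 pieces in each library, so that each library is 1 pool of tissue. Each mark had 1 immunoprecipitated library (antibodies to H3K27ac, H3K4me3 and H3K27me3), and a library without immunoprecipitation, the input, enters no comparison. There are no replicates, so no p-value or SD is given. The 95% intervals reflect counting error alone, as if each peak were independent of its neighbours.

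Bird karyotypes combine a few large chromosomes with many small ones, the microchromosomes, which are known to be gene-dense, rich in G and C and high in recombination. H3K27ac marks active enhancers and promoters. H3K4me3 marks promoters, and H3K27me3 is laid down by Polycomb repressive complex 2 at repressed genes. Promoters that carry both H3K4me3 and H3K27me3 are called bivalent and are typical of developmental genes in cells that have not yet committed.

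Chromosomes 13 to 33 spanned 162 Mb, 15.2% of the span of all sequences, where the span of a chromosome runs to the end of its last peak. They held 25.3% of the H3K27ac list (11485 peaks), 20.9% of the H3K4me3 list (5717 peaks) and 18.5% of the H3K27me3 list (4272 peaks). The smallest was chromosome 32 with a span of 0.725 Mb and the largest chromosome 13 with 19.2 Mb. They are set beside chromosomes 1 to 5, which spanned 609 Mb in chromosomes of 59.8 to 198 Mb and held 48390 peaks. Peak lists carry no read counts, so that the depth of each library is unknown and numbers are compared between chromosomes within 1 list.

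Peaks of all marks were denser on the small autosomes. H3K27ac had 71.1 peaks per Mb on chromosomes 13 to 33 and 35.9 on chromosomes 1 to 5, a ratio of 1.98 (interval 1.94 to 2.03). For H3K4me3 the densities were 35.4 and 23.9 peaks per Mb (ratio 1.48, 1.44 to 1.53), and for H3K27me3 26.4 and 19.7 (ratio 1.35, 1.30 to 1.39). Chromosomes 6 to 12 lay between the sets for H3K27ac, with 53.2 peaks per Mb, and nearer to the large chromosomes for the other marks, with 26.7 for H3K4me3 and 19.5 for H3K27me3. At the edge of the rule, chromosome 13 had 64.8 and chromosome 12 had 59.6 H3K27ac peaks per Mb. The H3K27me3 ratio rested in large part on a few chromosomes. Without chromosomes 16, 27, 31 and 33 it was 1.14, while that of H3K27ac was 2.18 and the H3K4me3 density was 35.9 peaks per Mb. Among peaks with a fold enrichment over background of 4 or more the order of the marks turned, with a density ratio of 3.27 for H3K27me3 and 1.65 for H3K27ac.

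**Figure D1:**
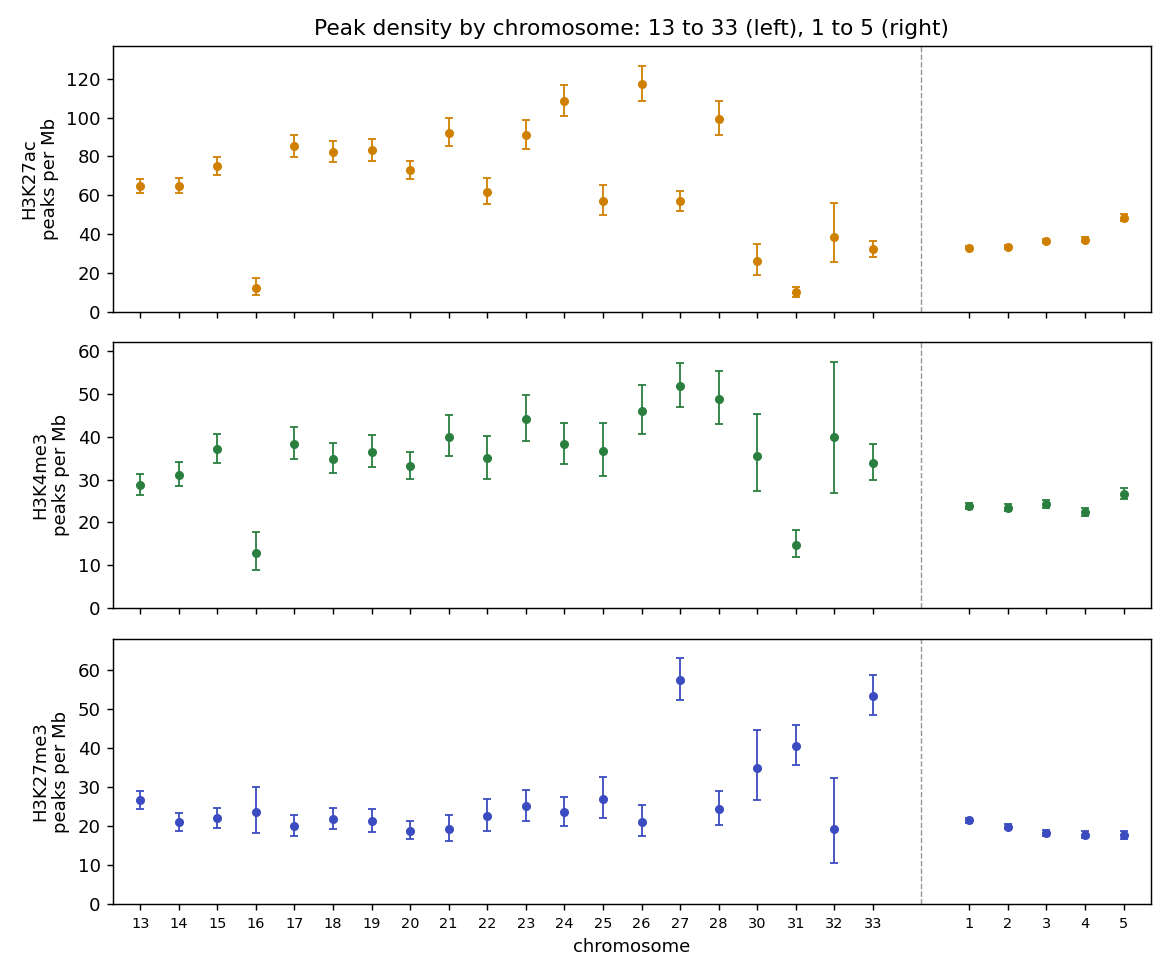
Peaks per Mb of H3K27ac (top), H3K4me3 (middle) and H3K27me3 (bottom) on each small autosome, left of the dashed line, and on chromosomes 1 to 5, right of it. Points are counts over the span and bars are exact Poisson 95% intervals. H3K27ac ranged between 10.1 and 117 peaks per Mb on the small autosomes and between 33.1 and 48.5 on the large chromosomes, and the H3K27me3 points of chromosomes 27 and 33 stand above all others.

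The excess in density was shared by most small autosomes but not by all. H3K27ac density was above all of chromosomes 1 to 5 on 15 of the 20, below all of them on chromosomes 16, 30, 31 and 33, and within their range on chromosome 32. Chromosome 26 was the densest, with 637 H3K27ac peaks or 117 per Mb (interval 108 to 127), followed by chromosome 24 with 109 (101 to 117). The sparsest were chromosome 31, with 62 peaks or 10.1 per Mb (7.74 to 12.9), and chromosome 16, with 35 peaks or 12.4 per Mb (8.63 to 17.2). For H3K4me3, 18 of the 20 lay above all large chromosomes. The highest densities were found on chromosome 27 (51.9 peaks per Mb, 47.0 to 57.1) and chromosome 28 (48.8, 42.9 to 55.2), and the lowest again on chromosome 16 (12.7, 8.92 to 17.6) and chromosome 31 (14.8, 11.9 to 18.2). H3K27me3 took another order. Chromosome 27 had 57.6 peaks per Mb (52.5 to 63.1), chromosome 33 53.5 (48.5 to 58.8) and chromosome 31 40.5 (35.7 to 45.9). The lowest H3K27me3 densities were on chromosome 20 (18.9) and chromosome 21 (19.3), and neither was below the range of chromosomes 1 to 5, which was 17.7 to 21.6. In all, 13 of 20 small autosomes lay above that range and 7 within it.

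Chromosomes of similar span thus carried different marks. Chromosomes 21 (6.84 Mb) and 31 (6.14 Mb) differ little in span, yet chromosome 21 had 632 H3K27ac and 132 H3K27me3 peaks, and chromosome 31 had 62 and 249. Over the 20 small autosomes, H3K27ac density went with span only weakly (Pearson r = 0.26, Spearman rho = 0.24). It went with H3K4me3 density (r = 0.67, rho = 0.58) and against H3K27me3 density (r = -0.47, rho = -0.48). All points of 1 mark come from 1 library, and without chromosomes 16, 27, 31 and 33 the last pair was r = -0.43 and rho = -0.21. These coefficients describe 20 chromosomes and carry no test.

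Cover, the share of the span that lies under peaks, separated the sets further than density did. H3K27ac covered 8.84% of chromosomes 13 to 33 and 3.44% of chromosomes 1 to 5, a ratio of 2.57. H3K4me3 covered 2.44% and 1.48% (ratio 1.65), and H3K27me3 2.86% and 1.40% (ratio 2.04). Chromosomes 6 to 12 lay between the sets, at 5.73% for H3K27ac, 1.73% for H3K4me3 and 1.64% for H3K27me3. With a q-value limit of 0.01 the ratios of H3K27me3 and H3K27ac were alike, at 2.95 and 2.93. With a fold limit of 4 that of H3K27me3 was the higher one, at 4.35 against 2.08. Without chromosomes 16, 27, 31 and 33 it was the lower one, at 1.58 against 2.81. The highest H3K27ac cover was 17.3% on chromosome 26 and 15.3% on chromosome 24, and the lowest 0.948% on chromosome 31 and 1.30% on chromosome 16. H3K27me3 covered 9.17% of chromosome 27, 6.75% of chromosome 33 and 4.47% of chromosome 31, against 1.26 to 1.55% of the large chromosomes. Chromosome 27 also had the highest H3K4me3 cover, 4.05%, and its H3K27ac cover of 7.37% was above that of all large chromosomes (3.02 to 5.15%).

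Peaks were wider on the small autosomes. The median width of H3K27ac peaks was 872 bp on chromosomes 13 to 33 (quartiles 403 and 1499 bp) and 701 bp on chromosomes 1 to 5 (347 and 1195 bp). H3K4me3 peaks measured 482 bp against 424 bp, and H3K27me3 peaks 618.5 bp against 439 bp. The median H3K27me3 width was above all large chromosomes on 19 of 20 small autosomes, chromosome 32 with its 14 peaks being the exception. It was also above them on chromosomes 6 to 10 and 12 (456 to 539 bp), and chromosome 11 matched their highest value (454 bp). Median widths below all large chromosomes were found on chromosomes 30 and 32 for H3K27ac and on 18 and 22 for H3K4me3. Fold enrichment, the signal over local background given by the peak caller, hardly differed in the median. It was 2.66 on both sets for H3K27ac, 2.93 against 2.97 for H3K4me3 and 2.88 against 2.84 for H3K27me3.

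The strong end of the lists differed by mark. Among H3K27me3 peaks a fold of 4 or more was reached by 649 on chromosomes 13 to 33 (15.2%, 14.1 to 16.3) and by 748 on chromosomes 1 to 5 (6.25%, 5.82 to 6.69), with 10.2% over the whole list. For H3K4me3 the shares were 7.66% and 7.62%, with 7.68% over the list, and for H3K27ac 2.65% (2.36 to 2.96) and 3.17% (2.95 to 3.41), with 3.07% over the list. Chromosome 27 alone held 169 of the 649 strong H3K27me3 peaks (26.04%), chromosome 13 held 110 (16.9%) and chromosome 33 held 79 (12.2%). Without chromosomes 16, 27, 31 and 33 the share was 11.5% (10.3 to 12.6). The stricter q-value limit of 0.01 was met by 59.5% of H3K27me3 peaks on chromosomes 13 to 33 and 43.4% on chromosomes 1 to 5 (50.7% over the list), by 47.8% and 40.6% of H3K4me3 peaks (43.0% over the list), and by 58.0% and 52.3% of H3K27ac peaks (54.0% over the list).

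Neighbouring peaks stood closer together on the small autosomes. The median gap between H3K27ac peaks was 4.92 kb (quartiles 2.09 and 12.6 kb) on chromosomes 13 to 33 and 10.7 kb (3.67 and 28.8 kb) on chromosomes 1 to 5. Gaps of under 5 kb made up 50.4% of H3K27ac gaps on the small autosomes and 31.5% on the large chromosomes, and gaps of over 100 kb made up 0.881% and 5.15%. Median gaps of H3K4me3 were 15.9 kb against 25.8 kb, and those of H3K27me3 12.2 kb against 29.8 kb. Chromosomes 6 to 12 lay between the sets, at 7.30 kb for H3K27ac, 22.7 kb for H3K4me3 and 25.8 kb for H3K27me3. The ratio of the H3K27me3 medians, 0.408, depended on the peaks taken, at 0.174 with a q-value limit of 0.01, 0.0246 with a fold limit of 4 and 0.583 without chromosomes 16, 27, 31 and 33. The tightest H3K27ac spacing was found on chromosome 26 (median 3.55 kb) and chromosome 24 (3.96 kb), and the loosest on chromosome 31 (18.7 kb) and chromosome 32 (14.5 kb). On chromosome 33 the median H3K27ac gap was 3.98 kb although its density, 32.2 peaks per Mb, was below that of all large chromosomes. Its H3K27ac peaks were thus close to each other but left long stretches empty.

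**Figure D2:**
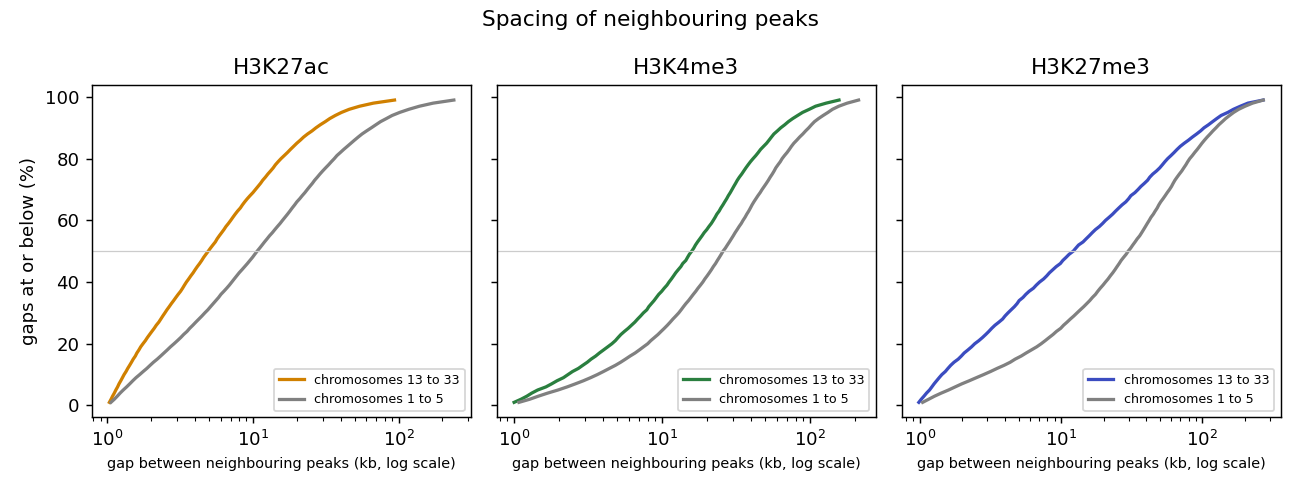
Cumulative share of gaps between neighbouring peaks of 1 list (vertical axis, percent) against gap length in kb on a log axis, for H3K27ac, H3K4me3 and H3K27me3. Coloured lines are chromosomes 13 to 33 and grey lines chromosomes 1 to 5, each drawn at the 1st to 99th percentile. The coloured lines lie to the left, with medians of 4.92 against 10.7 kb, 15.9 against 25.8 kb and 12.2 against 29.8 kb.

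H3K27me3 spacing had the widest spread. Its quartiles on chromosomes 13 to 33 were 3.23 and 44.5 kb, against 9.94 and 68.7 kb on chromosomes 1 to 5, and 10.5% of its gaps were still over 100 kb, against 14.8% on the large chromosomes. H3K27me3 was also more clustered than on the large chromosomes. Counted in windows of 100 kb, the tenth of windows with the most peaks held 39.5% of H3K27me3 peaks on the small autosomes and 29.5% on the large chromosomes. For H3K27ac the order was the opposite, with 24.2% against 31.8%, and for H3K4me3 the values were 24.2% and 24.9%. The median window held 7 H3K27ac peaks on the small autosomes and 3 on chromosomes 1 to 5. The richest H3K27ac window, on chromosome 20 at chr20:13000001-13100000 (GalGal6), held 24 H3K27ac, 5 H3K4me3 and 2 H3K27me3 peaks.

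Position along the chromosome differed by mark as well. Each chromosome was cut into 5 equal parts. The first and last part held 49.0% (47.5 to 50.5) of H3K27me3 peaks on the small autosomes and 41.2% (40.3 to 42.1) on chromosomes 1 to 5, where an even spread would give 2 of 5 peaks. H3K27ac had 39.2% (38.3 to 40.1) against 41.5% (40.8 to 42.1) and H3K4me3 41.7% (40.4 to 43.0) against 40.4% (39.6 to 41.2). The H3K27me3 share was 50.4% without chromosomes 16, 27, 31 and 33. The ends were not alike, with 28.3% of H3K27me3 peaks of the small autosomes in the first part and 20.7% in the last. Without those 4 chromosomes these were 26.7% and 23.7%, and on chromosome 27 they were 48.6% and 8.39%. Chromosomes 15 (63.2%), 13 (59.9%) and 14 (59.6%) had the most H3K27me3 peaks in these outer parts, and chromosomes 25 (28.0%) and 16 (29.9%) the fewest. Chromosomes 17 (33.3%, 27.1 to 40.05), 31 (35.3%, 29.4 to 41.6) and 20 (39.3%, 33.4 to 45.5) were lower than an even spread, but their intervals included it. So did that of chromosome 16 (19.3 to 42.3).

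To ask how the marks combine, overlaps of at least 1 bp were counted. H3K4me3 differed most between the sets. Of H3K4me3 peaks on chromosomes 13 to 33, 2571 (45.0%, 43.7 to 46.3) overlapped H3K27ac, against 4672 (32.1%, 31.4 to 32.9) on chromosomes 1 to 5 and 35.4% over the whole list. Those with neither other mark were fewer, 2177 (38.1%, 36.8 to 39.4) against 7864 (54.1%, 53.3 to 54.9). Their share was below all of chromosomes 1 to 5 on each of the 20 small autosomes. This was not particular to the small autosomes. Chromosomes 6 to 12 lay between the sets when pooled, with 39.9% overlapping H3K27ac and 47.3% with neither other mark. Apart from chromosome 7 (50.9%), each of them had 43.5 to 49.0% with neither mark, also below all of chromosomes 1 to 5. Peaks with H3K27ac only, the pattern of active promoters, made up 38.8% of H3K4me3 peaks on the small autosomes and 26.03% on the large chromosomes, with 29.5% over the whole list. The share with H3K27ac was highest on chromosome 28 (59.4%) and chromosome 26 (57.6%) and lowest on chromosome 31 (18.7%) and chromosome 33 (29.8%). Among strong peaks, with a fold of 4 or more in both lists, the share was 14.2% (11.0 to 17.8) on the small autosomes and 14.4% on chromosomes 1 to 5.

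Overlap of H3K4me3 with H3K27me3, the combination of bivalent promoters, was uneven. Each mark came from its own library of pooled tissue, so an overlap does not show both marks in the same cell. No peak was assigned to a promoter. H3K27me3 overlapped 1321 H3K4me3 peaks on chromosomes 13 to 33 (23.1%, 22.0 to 24.2), 352 of them with H3K27ac as well. On chromosomes 1 to 5 it overlapped 2896 (19.9%, 19.3 to 20.6), and over the whole list 22.0%. The direction turned without chromosomes 16, 27, 31 and 33, when the share on the small autosomes was 18.6%. On those 4 chromosomes it was 60.4% for chromosome 31 (49.6 to 70.5), 50.8% for chromosome 27 (45.9 to 55.7), 47.9% for chromosome 33 (41.8 to 54.1) and 41.7% for chromosome 16 (25.5 to 59.2). Chromosome 30 had 45.3% among its 64 H3K4me3 peaks. The lowest shares were on chromosome 17 (13.3%) and chromosome 18 (13.9%), and in all 8 small autosomes lay above and 8 below the range of the large chromosomes.

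**Figure D3:**
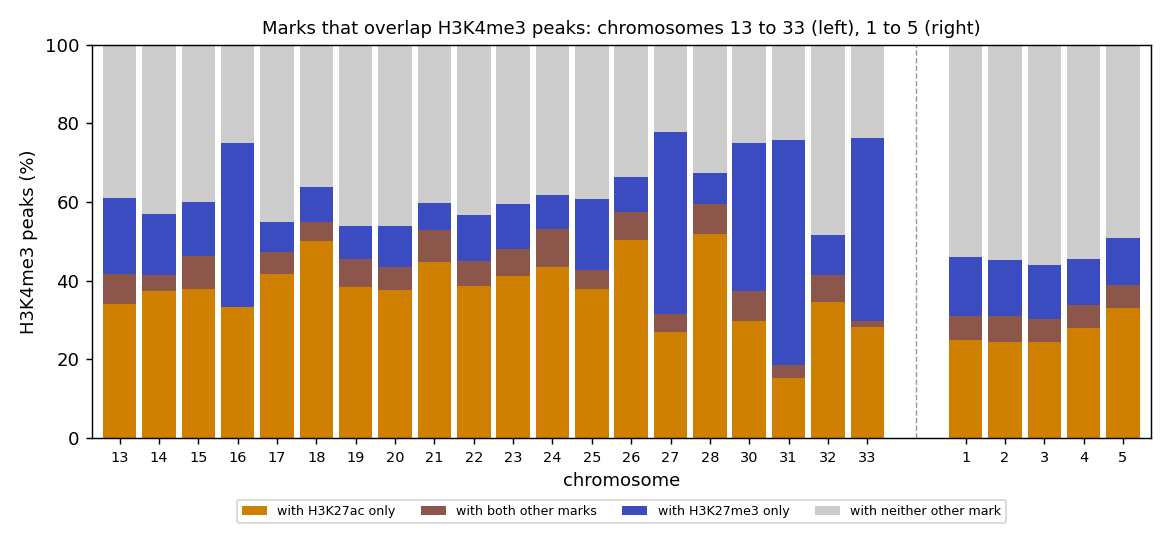
Share of H3K4me3 peaks (vertical axis, percent) that overlap H3K27ac only, both other marks, H3K27me3 only or neither, for each small autosome, left of the dashed line, and for chromosomes 1 to 5, right of it. The grey part, with neither mark, is smaller on each small autosome (22.2 to 48.3%) than on any large chromosome (49.2 to 56.1%), and the blue part, with H3K27me3 only, takes up most of chromosome 31 (57.1%).

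H3K27ac peaks met H3K27me3 less on the small autosomes. The overlap was 879 peaks (7.65%, 7.17 to 8.15) on chromosomes 13 to 33 and 2320 (10.6%, 10.2 to 11.0) on chromosomes 1 to 5, with 9.38% over the whole list. The share was below all large chromosomes on 19 of 20 small autosomes and above them on chromosome 30, with 12.8% (4.83 to 25.7) of 47 peaks. A low share was not particular to the small autosomes. Chromosomes 6 to 12 had 8.51% when pooled. Each of chromosomes 8 to 12 was also below all large chromosomes, while chromosomes 6 and 7 lay within their range. Overlap with H3K4me3 was 22.0% (21.2 to 22.7) against 21.2% (20.6 to 21.7), with 21.1% over the list, and the order of this pair turned with a q-value limit of 0.01 (16.3% against 16.6%) and with a fold limit of 4 (20.4% against 23.2%). H3K27ac peaks with neither other mark, which include candidate enhancers away from promoters, were 73.6% (72.8 to 74.4) against 72.4% (71.8 to 73.0). Over the whole list they were 73.3%, so that the small autosomes were close to the list. Chromosome 24 had the highest share of them (77.0%) and chromosome 30 the lowest (46.8%).

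Of H3K27me3 peaks, 1191 (27.9%, 26.5 to 29.3) overlapped H3K4me3 on the small autosomes and 2789 (23.3%, 22.5 to 24.1) on chromosomes 1 to 5, with 24.5% over the whole list. The order turned with a fold limit of 4, at 8.17% against 16.7%, and with the same number of peaks per mark, at 19.5% against 19.9%. Overlap with H3K27ac was 20.7% (19.5 to 21.9) against 19.4% (18.7 to 20.1), with 18.5% over the list, and here chromosomes went far apart. It was 42.4% on chromosome 21 and 39.9% on chromosome 24, but 8.17% on chromosome 27, 4.55% on chromosome 33, 1.61% on chromosome 31 and 1.49% on chromosome 16. Without these 4 the share was 26.7%. The order of the sets turned with a q-value limit of 0.01, at 11.3% against 13.7%, and with a fold limit of 4, at 0.924% against 2.67%.

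Lists that cover more of a chromosome meet more often wherever their peaks lie. Shared base pairs were therefore set against the product of the 2 covers of each chromosome. H3K27ac and H3K27me3 shared 424 kb on chromosomes 13 to 33, 1.16 times this product, and 986 kb on chromosomes 1 to 5, 3.36 times. The ratio was between 0.339 and 1.91 on the small autosomes and between 2.65 and 4.13 on the large chromosomes, so that these ranges did not overlap. Chromosomes 6 to 12 lay at 1.46 to 2.83, reaching into both ranges, and at 2.16 when pooled. Among the small autosomes the ratio was below 1 on chromosomes 27 (0.339), 33 (0.358), 16 (0.375), 31 (0.772) and 25 (0.857). H3K27ac and H3K4me3 shared 3.999 times the product on the small autosomes and 7.82 times on the large chromosomes, and H3K4me3 and H3K27me3 7.40 and 12.1 times. The ratio has a lower ceiling where a cover is higher, and the chromosomes with the sparsest H3K27ac had the highest values for H3K27ac with H3K4me3, 22.9 on chromosome 16 and 17.9 on chromosome 31.

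**Figure D4:**
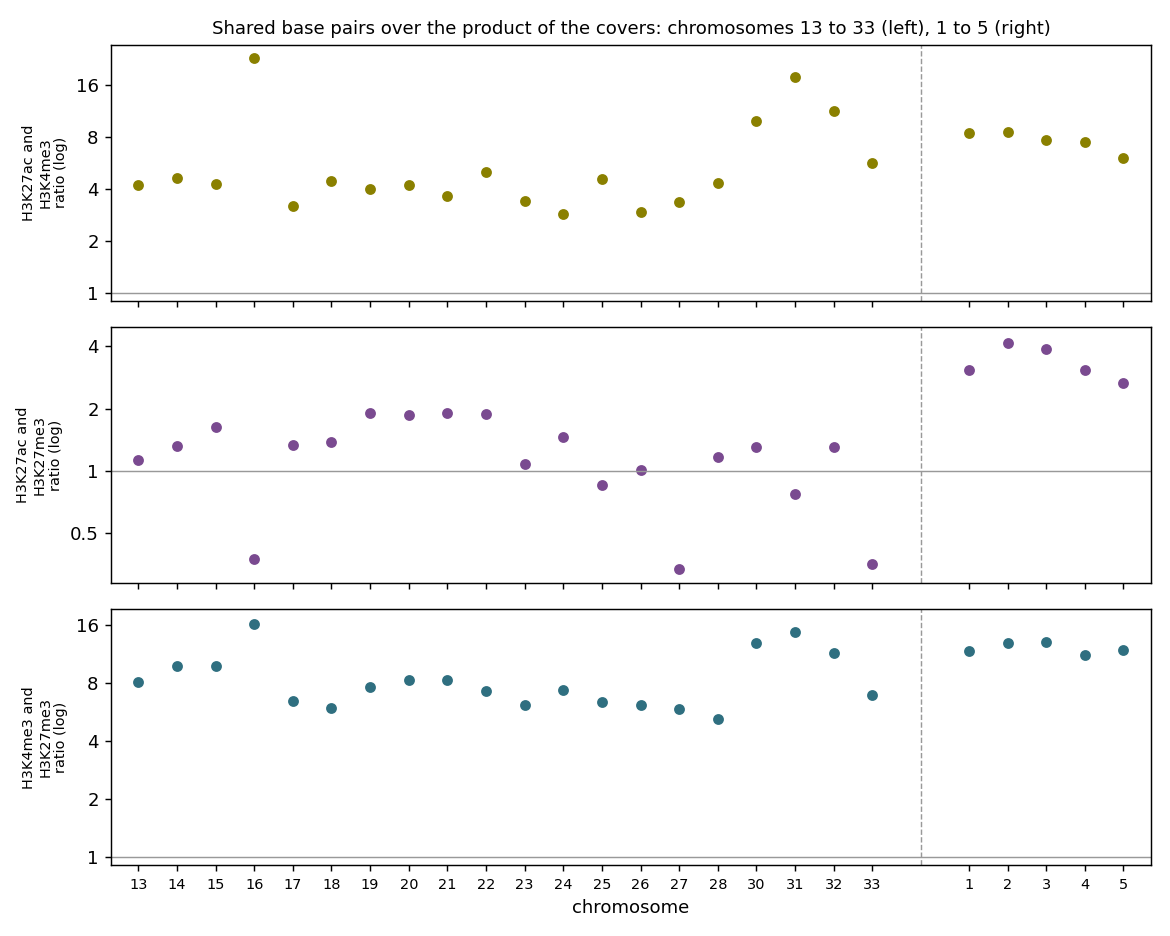
Base pairs shared by each pair of marks over the product of their covers, on a log axis, for each small autosome, left of the dashed line, and for chromosomes 1 to 5, right of it. The grey line marks a ratio of 1. In the middle panel, H3K27ac with H3K27me3, the small autosomes lie at 0.339 to 1.91 and the large chromosomes at 2.65 to 4.13.

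Distances to the nearest peak of another mark were measured for peaks that did not overlap it. H3K4me3 peaks without H3K27ac lay a median of 7.60 kb from the nearest H3K27ac peak on the small autosomes and 12.6 kb on chromosomes 1 to 5. H3K27me3 peaks without H3K27ac lay 21.2 kb from the nearest H3K27ac peak, against 16.3 kb on the large chromosomes. This order rested on a few chromosomes, with medians of 233 kb on chromosome 27, 169 kb on 33, 152 kb on 31 and 65.2 kb on 16, and without these 4 the median was 10.7 kb. On 13 of the 20 small autosomes it was 5.69 to 14.5 kb, below that of chromosomes 1 to 5. H3K27me3 peaks without H3K4me3 were 9.65 kb from the nearest H3K4me3 peak, against 14.6 kb.

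Chromosomes 16, 27, 31 and 33 together made up 15.4% of the span of the small autosomes. They held 28.1% of its H3K27me3 peaks (1199), 14.2% of its H3K4me3 peaks (811) and 7.04% of its H3K27ac peaks (808). Of all peaks on these 4, 42.5% (40.7 to 44.4) were H3K27me3 and 28.7% (27.01 to 30.4) H3K27ac, while on the other 16 small autosomes 16.5% were H3K27me3 and 57.2% H3K27ac. Stretches of over 100 kb without H3K27ac took up 80.6% of chromosome 31, 76.7% of chromosome 16, 64.3% of chromosome 33 and 44.2% of chromosome 27. They took up 53.5% of chromosome 30, 35.9% of chromosome 25, 29.8% of chromosome 32 and 24.3% of chromosome 13. On the other small autosomes they took up between none (chromosome 21) and 19.0% (chromosome 14), with 2.69% of chromosome 26. This share was not computed for chromosomes 1 to 5, where 1125 gaps between H3K27ac peaks were over 100 kb, so such stretches are not particular to the small autosomes.

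**Figure D5:**
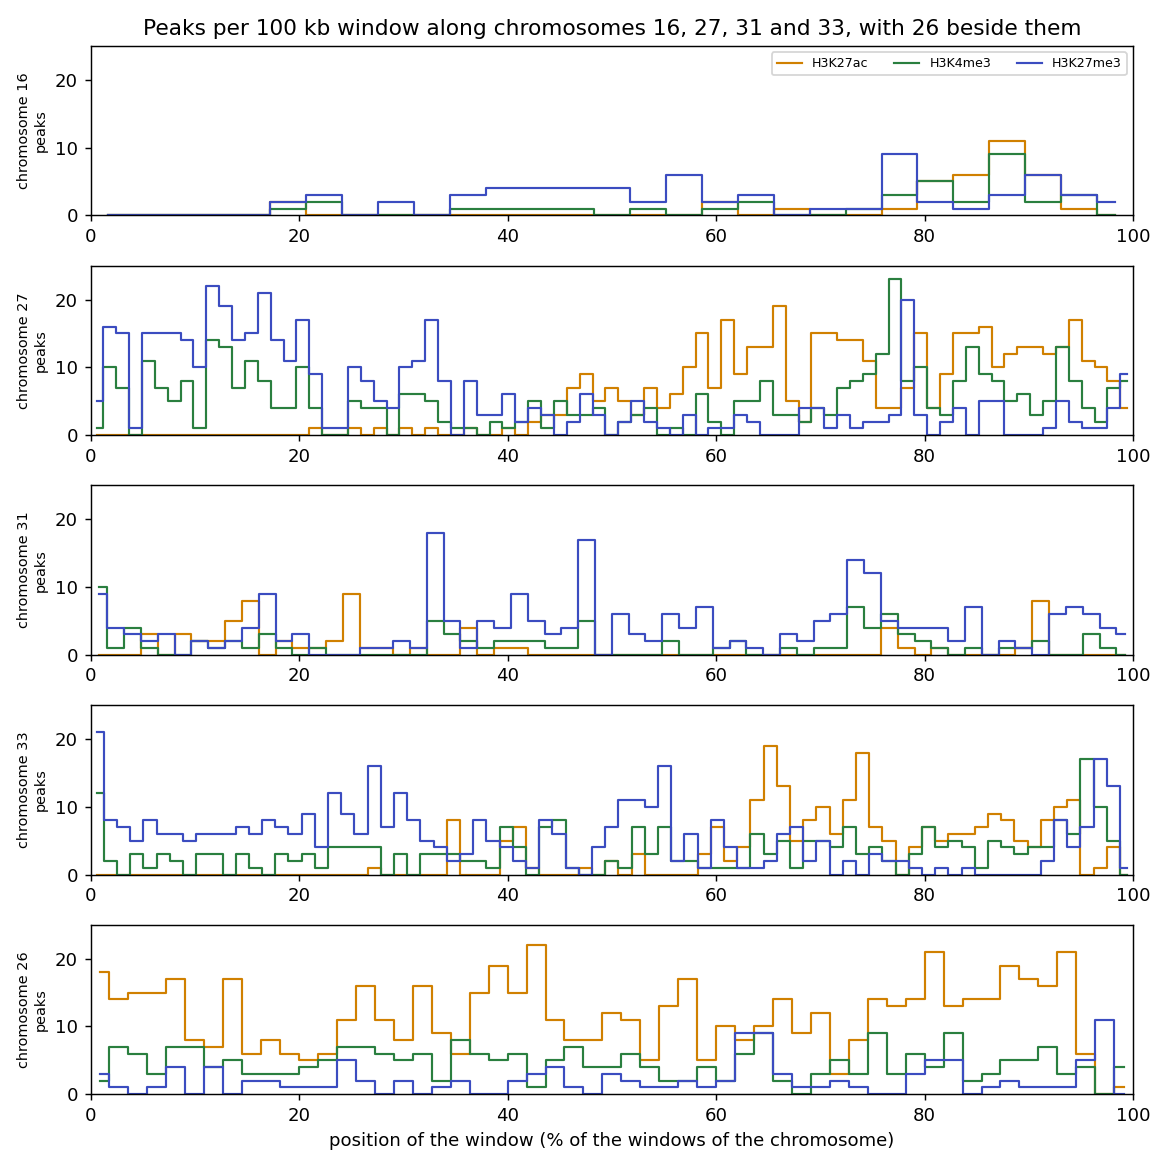
Number of H3K27ac, H3K4me3 and H3K27me3 peaks in each 100 kb window along chromosomes 16, 27, 31 and 33, with chromosome 26, the densest in H3K27ac, at the bottom. The horizontal axis is the place of the window in percent of the windows of the chromosome. H3K27ac is at 0 over the first part of chromosomes 27 and 33, where H3K27me3 peaks are many, and over the middle of chromosome 31, and on chromosome 26 it is spread over the whole length, apart from 1 stretch of 146 kb.

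Chromosome 27 was divided most sharply. No H3K27ac peak lay in its first 1776 kb, chr27:1-1776131 (GalGal6), which held 243 H3K27me3 and 123 H3K4me3 peaks. That is 52.3% of the H3K27me3 and 29.4% of the H3K4me3 peaks of the chromosome in 22.0% of its span. H3K27me3 reached 137 peaks per Mb there and covered 21.9%, against 35.2 peaks per Mb and 5.58% in the remainder of the chromosome. The remainder was not free of long tracts without H3K27ac, since those of over 100 kb took up 44.2% of the chromosome in all. Of the 123 H3K4me3 peaks in the stretch, 122 (99.2%, 95.6 to 99.98) overlapped H3K27me3, against 91 of 296 (30.7%, 25.5 to 36.3) in the remainder. The H3K27me3 peaks were also stronger, with a median fold enrichment of 4.21 and 145 of 243 (59.7%) at 4 or more, against 2.83 and 10.8%. Fold enrichment of H3K4me3 did not follow, with a median of 2.75 in the stretch and 2.92 in the remainder. From 3.5 Mb on, each block of 500 kb held 26 to 60 H3K27ac peaks, apart from the short last block with 4.

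Chromosome 33 also opened without H3K27ac, which was missing from its first 2147 kb, chr33:1-2147237, where 166 H3K27me3 peaks (39.7% of the chromosome, 77.3 per Mb) and 54 H3K4me3 peaks lay. Of these H3K4me3 peaks 38 (70.4%, 56.4 to 82.0) overlapped H3K27me3, against 42.2% (35.4 to 49.2) in the remainder. Unlike on chromosome 27, H3K27me3 cover was not higher in this stretch, at 6.53% against 6.83% in the remainder, and its peaks were not stronger, with a median fold enrichment of 2.81 against 3.05 and 12.05% against 23.4% at 4 or more. Their median width was 727 bp against 701.5 bp, and none was wider than 2501 bp, where the remainder reached 45598 bp. The remainder also held long tracts without H3K27ac, such as chr33:2148033-2753370 (605 kb, 74.3 H3K27me3 peaks per Mb). Tracts of over 100 kb took up 64.3% of the chromosome in all, so the remainder does not stand for sequence with H3K27ac. Most H3K27ac peaks of chromosome 33 lay further on, with 51.6% in part 4 of 5 and 36.5% in part 5.

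On chromosome 31 the longest stretch without H3K27ac lay in the middle, chr31:2576519-4753432, over 2177 kb or 35.4% of the span. It held 108 H3K27me3 peaks (49.6 per Mb), against 35.5 per Mb in the remainder, and they were unevenly spread. The 3 blocks of 500 kb from 3000001 to 4500000 held 17, 15 and 16 H3K27me3 peaks, and the blocks on either side, which reach beyond the stretch, 38 and 39. Of the 33 H3K4me3 peaks in the stretch 25 (75.8%, 57.7 to 88.9) overlapped H3K27me3, against 51.7% (38.2 to 65.0) in the remainder, so that the intervals overlapped. H3K4me3 peaks were as sparse inside the stretch (15.2 per Mb) as outside it (14.6 per Mb). Much of the remainder lacked H3K27ac as well, since tracts of over 100 kb without it took up 80.6% of the chromosome in all. These values thus do not compare sequence without H3K27ac to sequence with it. On chromosome 16, which in the chicken carries the major histocompatibility complex and the ribosomal RNA genes, 1185 kb without H3K27ac at chr16:587736-1772927 held 34 of its 67 H3K27me3 peaks and 8 of its 36 H3K4me3 peaks. Of its 35 H3K27ac peaks, 85.7% lay in part 5 of 5. No peak of any mark was listed in its first 500 kb.

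Long tracts without H3K27ac were not always rich in H3K27me3. On chromosome 13, chr13:624800-1374406 (750 kb) held 72 H3K27me3 peaks, or 96.1 per Mb. On chromosome 25, chr25:739047-1461638 (723 kb) held 4 H3K27me3 and 2 H3K4me3 peaks, and on chromosome 22, chr22:3037850-3615018 (577 kb) held 2 and 1. Both tracts were thus poor in all marks. The first 505 kb of chromosome 17 held no peak of any mark. Windows of 100 kb without any peak made up 24.1% of chromosome 16, 12.5% of chromosome 25 and 7.27% of chromosome 22. On all small autosomes they made up 2.15%, and on chromosomes 1 to 5 1.77%. Whether reads could be mapped in such tracts was not tested. Over all small autosomes, 28.7% (27.3 to 30.1) of H3K27me3 peaks lay in 100 kb windows without an H3K27ac peak, against 16.4% (15.7 to 17.1) on chromosomes 1 to 5. Such windows made up 13.5% of the windows on the small autosomes and 17.0% of those on chromosomes 1 to 5. Without chromosomes 16, 27, 31 and 33 the share of H3K27me3 peaks was 13.7% (12.5 to 14.97). On those chromosomes 33.3 to 69.0% of windows lacked H3K27ac. Leaving them out also removes many such windows, so that 13.7% does not compare directly with chromosomes 1 to 5. It does not show that the excess was confined to the 4. Chromosome 13 had 28.8% of its H3K27me3 peaks in such windows, which were 13.5% of its windows, and chromosome 28 had 21.6% in 3.85%. The order was opposite on chromosomes 17 (2.31% in 6.48%) and 22 (9.02% in 14.5%). H3K4me3 peaks in such windows were 8.78% of all on chromosomes 13 to 33 and 9.995% on chromosomes 1 to 5. Without the 4 they were 3.57%, with the same limit.

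H3K27me3 peaks were joined into runs across gaps of up to 3 kb, as Polycomb domains often span several peaks. Runs of over 10 kb numbered 103 on chromosomes 13 to 33 (0.638 per Mb) and 79 on chromosomes 1 to 5 (0.130 per Mb), and they held 31.9% and 13.1% of the length covered by H3K27me3. No H3K27ac peak was found in 81 of the 103, against 45 of the 79 and 215 of the 296 in the whole series. No H3K4me3 peak was found in 6 of the 103, 6 of the 79 and 31 of the 296. Chromosome 27 had 21 runs of over 10 kb and chromosome 13 had 19, of which 20 and 13 held no H3K27ac peak. The longest lay on chromosome 27 at chr27:6138238-6312858 (175 kb, 9 H3K27me3, 32 H3K4me3 and 8 H3K27ac peaks). In the RefSeq gene table of the GRCg7b assembly all 9 HOXB genes, which pattern the body axis, are on chromosome 27, but no gene was assigned to a peak here because the builds differ. The second on the small autosomes, rank 3 in the whole series, was chr33:7520759-7671068 (150 kb, 15 H3K27me3, 25 H3K4me3 and 0 H3K27ac peaks). The third, rank 6 in the series, was on chromosome 13 at chr13:1482006-1552743 (70.7 kb). It held 17 H3K27me3, 6 H3K4me3 and 0 H3K27ac peaks. The next, rank 7, lay within the first stretch of chromosome 27, at chr27:948407-1018267 (69.9 kb, 18 H3K27me3 and 16 H3K4me3 peaks).

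The widest H3K27ac peak of the series was on chromosome 14 at chr14:3597164-3619006 (21843 bp, fold enrichment 3.18), followed among the small autosomes by chr17:2380352-2397871 (17520 bp) and chr20:3750490-3766542 (16053 bp). None of them overlapped H3K27me3 and only that on chromosome 20 overlapped H3K4me3, with 1 peak. The H3K27ac peaks of the highest fold enrichment on the small autosomes were short, at chr28:3170362-3170759 (398 bp, 7.67), chr19:8853228-8853561 (334 bp, 7.54) and chr19:183996-184415 (420 bp, 6.93). The widest H3K4me3 peaks of the small autosomes were at chr14:6143707-6149604 (5898 bp), chr15:12483714-12489317 (5604 bp) and chr14:4528321-4533656 (5336 bp), and all of them overlapped H3K27ac. The strongest there, at chr15:7108347-7109177 (fold enrichment 11.0), chr17:5838701-5839098 (10.6) and chr18:3105347-3105760 (9.09), each overlapped 1 H3K27ac peak and no H3K27me3 peak. For H3K27me3 the 3 widest peaks of the series were here, at chr27:6213329-6287457 (74129 bp), chr27:6164580-6212255 (47676 bp) and chr33:7562736-7608333 (45598 bp). The strongest H3K27me3 peaks of the small autosomes ranked only 14, 25 and 28 by fold enrichment in the whole list, and they were short. They lay at chr17:8344887-8345911 (1025 bp, 12.6), chr13:549242-549691 (450 bp, 10.4) and chr27:6638235-6638565 (331 bp, 9.98). Each overlapped 1 H3K4me3 peak and no H3K27ac peak.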

How the data were processed

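Peak lists of 1 H3K27ac, 1 H3K4me3 and 1 H3K27me3 library of OEPs were analysed. Per the study's methods, the authors trimmed reads (Trim Galore, per the submitters' processing notes), aligned them to GalGal6 with BWA in the NF-core ChIP-seq pipeline and used MACS2 for broad peaks, keeping a false discovery rate below 0.1. Whether the input served as the control is not given in the sources used here. Deposited fold enrichments are linear ratios of signal to background. Significance is deposited on a −log10 scale, as p-value and as q-value. The authors' caller also wrote a score, which was not used. The smallest deposited −log10 q-value was 1.01.

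Coordinates are 1-based. Cover, gaps, overlaps (at least 1 bp) and windows of 100 kb were computed with Python 3.11.15, numpy 2.4.6 and pandas 2.3.3, after the interval functions had been tested on simulated data. Gaps were measured between peaks of the same list. Intervals are 95% exact Clopper-Pearson for shares, exact Poisson for counts and exact conditional for ratios of densities (scipy 1.17.1). Chromosomes of 1 library are not replicates, so no test was made. A sequence of the build was not used here. Sites named are the 3 widest and 3 strongest peaks per mark, the 3 longest runs, the 3 longest stretches without H3K27ac and, for each measure, the 2 highest and 2 lowest chromosomes, with chromosomes 16, 27, 31 and 33. Other sites were named after their values were seen. The members and lists were chosen with earlier results of these data known. Alternatives comprised limits on q-value (0.01) and fold (4), merging within 1 kb, the same number of peaks per mark, another span, equal weight of chromosomes, leaving out chromosomes 16, 27, 31 and 33, and requiring 50% of the shorter peak to be shared.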

Additional observations from a re-analysis of the deposited data

How the results depend on the processing

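Of 159 values from alternatives to 15 results, 83 stayed within the interval of the reported value. A further 68 moved beyond it but kept the order of chromosomes 13 to 33 and 1 to 5, and some of them moved toward no difference. The other 8 changed this order. For shares the interval is that of the share on chromosomes 13 to 33 alone. For cover ratios it is the interval of the density ratio, scaled to the cover ratio, so that it reflects the count of peaks and not their widths. For gap ratios it is that of the median gap on chromosomes 13 to 33, with the median on chromosomes 1 to 5 taken as fixed. Ratios are those of chromosomes 13 to 33 over chromosomes 1 to 5, and shares are those on chromosomes 13 to 33. With a q-value limit of 0.01 the density ratio was 2.19 for H3K27ac, 1.74 for H3K4me3, 1.84 for H3K27me3, the cover ratio was 2.93 for H3K27ac, 1.95 for H3K4me3, 2.95 for H3K27me3 and the gap ratio was 0.411 for H3K27ac, 0.490 for H3K4me3, 0.174 for H3K27me3. The shares were then 16.3% of H3K27ac with H3K4me3 (against 16.6% on chromosomes 1 to 5), 4.34% of H3K27ac with H3K27me3, 40.2% of H3K4me3 with H3K27ac, 25.3% of H3K4me3 with H3K27me3, 11.3% of H3K27me3 with H3K27ac (against 13.7% on chromosomes 1 to 5), 24.2% of H3K27me3 with H3K4me3. With a fold limit of 4 the density ratio was 1.65 for H3K27ac, 3.27 for H3K27me3, the cover ratio was 2.08 for H3K27ac, 1.58 for H3K4me3, 4.35 for H3K27me3 and the gap ratio was 0.0246 for H3K27me3. Overlaps then came to 20.4% of H3K27ac with H3K4me3 (against 23.2% on chromosomes 1 to 5) and 1.97% of H3K27ac with H3K27me3 (against 2.88%). Of H3K4me3 peaks, 14.2% overlapped H3K27ac (against 14.4% on chromosomes 1 to 5) and 12.8% H3K27me3 (against 11.7%). Of H3K27me3 peaks, 0.924% overlapped H3K27ac (against 2.67% on chromosomes 1 to 5) and 8.17% H3K4me3 (against 16.7%). With 23067 peaks per mark the density ratio was 1.36 for H3K4me3, the cover ratio was 2.75 for H3K27ac, 1.51 for H3K4me3 and the gap ratio was 0.446 for H3K27ac, 0.672 for H3K4me3. Among the overlap shares, those that moved were 25.4% of H3K27ac with H3K4me3 (25.3% on chromosomes 1 to 5) and 33.2% of H3K4me3 with H3K27ac (22.4%). For H3K4me3 with H3K27me3 the share was 19.9% (19.5% on chromosomes 1 to 5), and for H3K27me3 with H3K27ac 10.9% (10.6%). For H3K27me3 with H3K4me3 it was 19.5% (against 19.9% on chromosomes 1 to 5). Apart from H3K4me3 with H3K27ac, these shares hardly differed between chromosomes 13 to 33 and 1 to 5. With 50% of the shorter peak shared the shares were 19.7% of H3K27ac with H3K4me3, 6.77% of H3K27ac with H3K27me3, 40.5% of H3K4me3 with H3K27ac, 21.7% of H3K4me3 with H3K27me3, 18.3% of H3K27me3 with H3K27ac, 25.9% of H3K27me3 with H3K4me3. With chromosomes weighted equally the density ratio was 1.77 for H3K27ac, 1.43 for H3K27me3 and the cover ratio was 2.27 for H3K27ac, 2.11 for H3K27me3. The shares were then 26.2% of H3K27ac with H3K4me3, 43.6% of H3K4me3 with H3K27ac, 25.7% of H3K4me3 with H3K27me3, 22.0% of H3K27me3 with H3K27ac. Without chromosomes 16, 27, 31 and 33 the density ratio was 2.18 for H3K27ac, 1.14 for H3K27me3, the cover ratio was 2.81 for H3K27ac, 1.58 for H3K27me3 and the gap ratio was 0.643 for H3K4me3, 0.583 for H3K27me3. Overlaps then came to 47.5% of H3K4me3 with H3K27ac, 18.6% of H3K4me3 with H3K27me3 (against 19.9% on chromosomes 1 to 5), 26.7% of H3K27me3 with H3K27ac. Without chromosome 27 alone the density ratio was 1.26 for H3K27me3, the cover ratio was 1.59 for H3K4me3, 1.803 for H3K27me3 and the gap ratio was 0.640 for H3K4me3, 0.480 for H3K27me3. Among the overlap shares, those that moved were 20.9% of H3K4me3 with H3K27me3, 22.2% of H3K27me3 with H3K27ac. Without chromosome 31 alone the density ratio was 2.05 for H3K27ac and the cover ratio was 2.66 for H3K27ac. Without chromosome 33 alone the density ratio was 2.04 for H3K27ac, 1.28 for H3K27me3, the cover ratio was 2.63 for H3K27ac, 1.90 for H3K27me3 and the gap ratio was 0.441 for H3K27me3. The shares were then 21.9% of H3K4me3 with H3K27me3, 22.4% of H3K27me3 with H3K27ac. Leaving out single chromosomes, and the distances without chromosomes 16, 27, 31 and 33, were chosen after seeing the data. Leaving out chromosome 16, merging and the other span moved no value beyond its interval. Merging could not change density, cover or gaps of H3K27ac, since no H3K27ac gap was under 1 kb. The same number of peaks per mark likewise left the H3K27me3 list of 23067 peaks as it was. These unchanged values are among the 83 and do not bear on how stable the results are. Overlap shares depend on how many peaks each list holds, and the causes of the changes of order were not tested. No paired analysis was possible because each mark has 1 library. The depth of the libraries is unknown, so that a missing peak is not evidence of a missing mark.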
